A study of Mus musculus with 8 samples.

Results

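The 9 genes Hspa1a, Hspa1b, Hspa8, Hsp90aa1, Hsp90ab1, Dnaja1, Dnajb1, Hsph1 and Ubb encode heat shock proteins and ubiquitin, and the open chromatin at these genes was described in MPP3 and MPP4 cells, the myeloid-biased and the lymphoid-biased multipotent progenitors of mouse bone marrow. The genes were chosen by their role in protein stress, with earlier results of the same libraries known. A peak belonged to a gene when its centre lay in the gene, within 20 kb before its start or within 10 kb after its end, and no transcript of another gene was closer. This gave 23 of 87642 peaks in MPP3 cells and 26 of 86952 peaks in MPP4 cells. Accessibility was measured by ATAC-seq, in which the Tn5 transposase inserts adapters into open DNA, in 8 libraries of 5000 sorted cells. Each genotype was represented by 2 libraries of MPP3 and 2 of MPP4 cells. All mice were C57BL/6 (C57BL/6J in the study's methods) with floxed Ebf1 alleles. By the labels, the control mice were Ebf1fl/fl Tie2Cre +/+, without Cre, and the knockout mice were Ebf1fl/fl Tie2Cre +/cre. Tie2Cre is active in endothelial as well as blood-forming cells, so deletion is not limited to the sorted cells. MPP3 control mice were 8 weeks old and MPP3 knockout mice 8 and 9 weeks old. MPP4 control mice were 9 weeks old and MPP4 knockout mice 8 weeks old. Of the 8 libraries, 7 were from female mice, and 1 MPP4 control library was from a male mouse. The labels do not say which libraries share a mouse.

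Heat shock proteins are chaperones that keep other proteins folded. HSP70 proteins bind unfolded stretches, J proteins deliver these stretches and stimulate the HSP70 ATPase, HSP110 proteins exchange the nucleotide, and HSP90 proteins take over clients that are partly folded. Proteins that cannot be refolded are tagged with ubiquitin for the proteasome. Under proteotoxic stress, heat shock factors bind repeated units in the promoters of many of these genes, and several of the genes are also transcribed in unstressed cells.

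The level of a peak is the authors' mean log2 CPM (fragment counts scaled to the size of each library) over the 4 libraries of a cell type, with knockout and control libraries together. It is a single value per peak and cell type, so it has no spread over libraries, the effect of genotype is not described, and it is not possible to say which neighbours in an order of levels differ beyond replicate error. The MPP3 and MPP4 tables were normalized separately, and differences between them were not tested.

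The cell type labels were compared with marker genes through peaks within 1 kb of a transcript start. Flt3, the receptor used to sort MPP4 cells, had a summed promoter level of 5.92 log2 CPM in MPP3 and 7.01 in MPP4 cells. Kit, the stem cell factor receptor, had 6.41 and 6.57. Cd34 had 4.76 and 5.16. The sorting markers Cd48 and Slamf1 (CD150) were lower, with 2.77 and 3.18 for Cd48 and 1.42 and 1.33 for Slamf1, and by the closest gene Cd48 had no promoter peak in MPP4 cells. By the same rule, 5 of 6 progenitor markers had a promoter peak in each cell type, as did 0 of 3 T cell markers in MPP3 and 1 in MPP4 cells, 2 of 3 B cell markers in each, 2 of 4 myeloid markers in MPP3 and 1 in MPP4 cells, and 2 of 3 erythroid markers in each. No peak was assigned to the promoters of Cd3e and Cd8a (T cells), Ly6g and Csf1r (myeloid cells) or Hba-a1 (erythroid cells) in either cell type. Ly6a, which encodes the sorting marker Sca-1, had no promoter peak in MPP3 and one at 1.15 in MPP4 cells. Pax5, a B cell factor, had 5.00 and 4.52, and Cd79a had 3.69 in MPP3 cells and no promoter peak in MPP4 cells. The part of other cell types in the levels below was not tested.

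The strongest peaks at the 9 genes lay at promoters, here peaks with their centre within 1 kb of a transcript start of the gene. In MPP3 cells 11 of the 23 peaks (47.8%) were promoter peaks, 5 lay elsewhere in the gene body and 7 were distal. In MPP4 cells 14 of the 26 peaks (53.8%) were promoter peaks, 5 lay in the gene body and 7 were distal. Among all peaks, 26.3% in MPP3 and 26.6% in MPP4 cells were promoter peaks. The median level of the promoter peaks was 6.18 log2 CPM in MPP3 and 5.75 in MPP4 cells, beside 3.56 and 3.54 for all promoter peaks. Peaks in the gene bodies had medians of 3.64 and 3.85, beside 1.96 and 2.05 for all gene body peaks. Distal peaks had medians of 3.43 and 3.19, beside 2.00 and 2.09 for all distal peaks. The promoter peaks were also long, with a median of 774 bp in MPP3 and 731 bp in MPP4 cells, beside 359 and 352 bp, so levels are compared between genes per kb of peak. Their median GC content was 61.0% in MPP3 and 62.5% in MPP4 cells, beside 60.7% and 60.5% for all promoter peaks. The ratio of observed to predicted CpG had a median of 0.75 and 0.78, beside 0.65 in both tables.

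Among the HSP70 genes, Hspa8, the constitutive form that also uncoats clathrin vesicles, had the most accessible promoter of the 9 genes. Its main peak at chr9:40800673-40801810 (mm10) reached 8.52 log2 CPM in MPP3 cells and ranked 13 of 87642 peaks. In MPP4 cells the peak at chr9:40800684-40801604 had 8.12 and ranked 19 of 86952. By log2 CPM per kb the main peak ranked 65 in MPP3 and 46 in MPP4 cells. A weaker peak upstream, at chr9:40799998-40800168 in MPP3 cells, had 4.68, and its MPP4 counterpart had 4.71. In MPP4 cells the 3′ end of the promoter formed a peak of its own, chr9:40801673-40801846, with 4.35. MPP3 cells had no separate peak there because the main peak ran over it. Introns of Hspa8 held peaks of 4.39 and 3.64 in MPP3 and 3.98 and 4.29 in MPP4 cells. A distal peak past the 3′ end, chr9:40814065-40814862, had 5.05 in MPP3 cells, and its MPP4 counterpart had 4.57.

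The stress-inducible HSP70 genes Hspa1a and Hspa1b had the lowest promoter levels per kb of the 9, and exact copies between the loci reach into both promoter peaks, so these levels may miss fragments. In log2 CPM by the closest gene, Ubb in MPP4 cells, with 5.24, was below Hspa1a. The Hspa1a promoter peak (chr17:34972022-34972795 in MPP3 cells) reached 5.59 log2 CPM, with 5.37 for the MPP4 counterpart, and it also covered the start of Hspa1l, an HSP70 gene on the other strand. The Hspa1b promoter peak (chr17:34959049-34959637 in MPP3 cells) reached 5.38, with 4.75 for the MPP4 counterpart. Per kb, the Hspa1a promoter had 5.96 and 5.76 and the Hspa1b promoter 6.15 and 5.61. These values per kb lay between the 59.88th and 73.43rd percentile of the protein-coding genes with a promoter peak. A distal peak 3′ of Hspa1a, chr17:34968287-34968808, had 3.74 in MPP3 cells, and its MPP4 counterpart had 2.96. A peak of 2.49 in the 3′ part of Hspa1b, in a UTR exon, was found in MPP3 cells alone, and one of 1.57 upstream of Hspa1b in MPP4 cells alone.

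The HSP90 genes had accessible promoters with different layouts. The main promoter peak of Hsp90aa1, the inducible form, at chr12:110695683-110696841, had 6.84 log2 CPM in MPP3 and 6.28 in MPP4 cells. An alternative start further upstream had a weaker peak of 3.42 in MPP3 and 2.55 in MPP4 cells. Hsp90aa1 had 6 peaks in each cell type, which included an intronic peak of 3.82 in MPP3 and 3.85 in MPP4 cells and an upstream distal peak of 3.78 and 3.50. The weakest peak of all 9 genes, 0.52 in MPP4 cells at chr12:110714338-110714512, was also assigned to Hsp90aa1. At Hsp90ab1, the constitutive form, adjacent promoter peaks at chr17:45572460-45573520 and chr17:45573769-45574431 had 7.16 and 6.18 in MPP3 and 6.81 and 6.13 in MPP4 cells. Its summed promoter level was 7.75 in MPP3 and 7.51 in MPP4 cells, the 99.02nd and 99.01st percentile of protein-coding genes with a promoter peak. Per kb it had 6.96 and 6.71, the 90.91st and 89.22nd percentile.

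The J protein genes and Hsph1 each had a strong peak over the start. Dnajb1, which also represses heat shock factor, had a promoter peak at chr8:83607793-83608778 of 7.36 log2 CPM in MPP3 cells, which also covered a start of Tecr. In MPP4 cells this stretch was divided into peaks of 6.93 and 4.67. The summed promoter level was 7.36 in MPP3 and 7.20 in MPP4 cells. MPP4 cells also had Dnajb1 peaks of 3.26 in an intron and 3.04 in a UTR exon that had no MPP3 counterpart. Dnaja1, which encodes a cytosolic J protein, had 1 peak in MPP4 cells, chr4:40722062-40723406, with 7.10. In MPP3 cells the matching peak, chr4:40722087-40723450, had 7.45 but was closest to Mir207, so Dnaja1 had no peak there by the rule. Hsph1, the HSP110 gene, had a promoter peak at chr5:149635990-149636905 of 6.85 in both cell types, and an intronic peak of 2.07 in MPP3 cells alone.

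Ubb encodes a chain of ubiquitin units. By the rule it had 1 peak in each cell type, over an internal start, with 5.68 log2 CPM in MPP3 at chr11:62551396-62551835 and 5.24 in MPP4 cells. A stronger peak over the first Ubb start, at chr11:62550908-62551304 in MPP3 cells, had 6.07, and its MPP4 counterpart had 5.72. That peak was closest to Gm12279, which starts there too, and was left out by the rule. With every peak within 1 kb of a start, an alternative chosen after seeing the data, Ubb had 3 promoter peaks with a summed level of 7.09 in MPP3 and 6.71 in MPP4 cells.

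With the same alternative the order of the promoters per kb was led by Hspa8, with 8.23 log2 CPM per kb in MPP3 and 7.94 in MPP4 cells. Dnajb1 followed with 7.38 and 7.23. Ubb with 7.02 and 6.63, Dnaja1 with 7.00 and 6.67, Hsph1 with 6.98 and 7.09, and Hsp90ab1 with 6.96 and 6.71 lay close together. Hsp90aa1 with 6.29 and 5.92 and the pair of inducible HSP70 genes, whose levels may miss fragments, had the lowest values. The median over all protein-coding genes with a promoter peak was 5.47 in MPP3 and 5.39 in MPP4 cells, below each of the 9 genes.

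**Figure D1:**
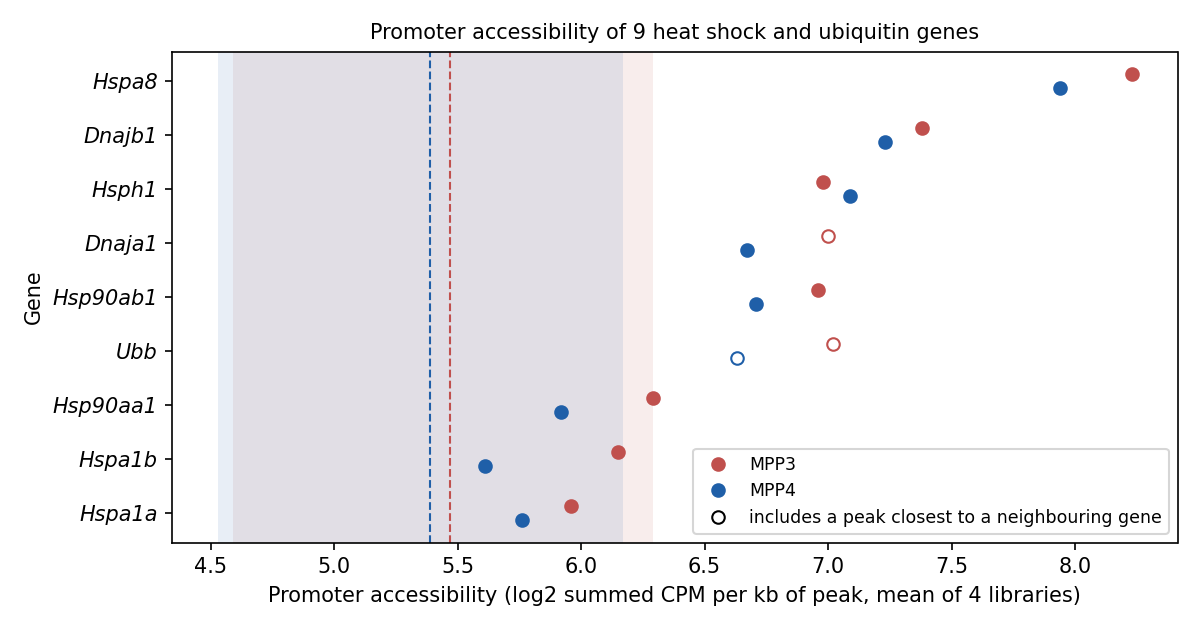
Promoter accessibility of the 9 genes in MPP3 (red) and MPP4 cells (blue), as log2 summed CPM per kb of all peaks within 1 kb of a transcript start; each point is 1 value from the mean of 4 libraries, with no error bar. Shaded bands span the lower to the upper quartile and dashed lines the median (5.47 and 5.39) of protein-coding genes with such a peak; open points include a peak closest to a neighbouring gene, and Hspa8 lies highest at 8.23 and 7.94.

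Nearest to the edge of the windows, a distal Dnajb1 peak of 2.98 log2 CPM in MPP3 and 3.19 in MPP4 cells lay 178 and 172 bp inside the downstream limit. Just outside, a peak of 2.89 at chr17:45556827-45556976 in MPP4 cells lay 874 bp past the downstream limit of Hsp90ab1, and was closest to Nfkbie. Within the windows, a further 27 peaks in MPP3 and 24 in MPP4 cells were closest to genes other than the 9. They included promoter peaks of Slc35b2, Lsm2, Aptx, Tecr and Cenpv.

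Most peaks of the 9 genes had a counterpart in the other cell type that shared at least 1 bp. This held for 19 of 23 MPP3 peaks (82.6%, 95% Wilson interval 62.9 to 93.0%) and 22 of 26 MPP4 peaks (84.6%, 66.5 to 93.8%), beside 75.7% and 76.7% of all peaks. All 11 promoter peaks in MPP3 and all 14 in MPP4 cells had a counterpart, beside 86.7% and 87.7% of all promoter peaks. The promoter peaks of the 9 genes had a higher median level and length than all promoter peaks. Shares at a like level or length were not calculated. The intervals cover counting error only. The peaks without a counterpart were gene body or distal peaks with levels between 0.52 and 3.26 log2 CPM.

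Side by side, the promoter levels of the 9 genes were mostly lower in MPP4 than in MPP3 cells. Of 12 matched promoter pairs, including the Dnaja1 pair, 11 had a lower value in MPP4 cells, with a median difference (MPP4 minus MPP3) of -0.38 log2 CPM. Over all 19998 matched promoter peaks 62.5% were lower, with a median of -0.12 and quartiles of -0.35 and 0.16. Among the 5202 with a mean of both tables of at least 5 log2 CPM, a group chosen after seeing the data, 79.5% were lower, with a median of -0.20 and quartiles of -0.36 and -0.04. By summed promoter level by the closest gene, Hspa1b differed most, by -0.63, followed by Hsp90aa1 with -0.58 and Ubb with -0.44. The Ubb value leaves out the stronger peak over its first start. With every peak within 1 kb of a start, Ubb differed by -0.38. Hspa8 differed by -0.27, Hsp90ab1 by -0.24, Hspa1a by -0.22 and Dnajb1 by -0.16. Hsph1 differed by -0.01, and by 0.11 per kb, so its direction turned. The weaker Hspa8 promoter peak turned the other way, from 0.02 to -0.38 per kb. The Dnaja1 peak, assigned to Mir207 in MPP3 cells, differed by -0.35. The median over 11991 protein-coding genes was -0.15, with quartiles of -0.35 and 0.07, so Hspa8, Hsp90ab1, Hspa1a, Dnajb1 and Hsph1 lay within the quartiles. The size of a difference between single peaks also moved with their ends: the main Hspa8 peaks differed by -0.40 in log2 CPM and by -0.09 per kb.

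Hspa1a and Hspa1b are nearly equal copies, which bears on how many reads could be assigned. Stretches of at least 100 bases that match exactly between the loci covered 1944 of the 2967 bases of Hspa1a and 1944 of the 2803 bases of Hspa1b. They covered 27.1% of the Hspa1a promoter peak in MPP3 and 26.4% in MPP4 cells. For the Hspa1b promoter peak they covered 45.0% and 50.0%. The other peaks at both genes had no base in such a stretch. Reads that match both copies equally well have a low mapping quality and were removed by the authors' filter, so levels of these promoter peaks may miss fragments, and the amount was not tested.

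**Figure D2:**
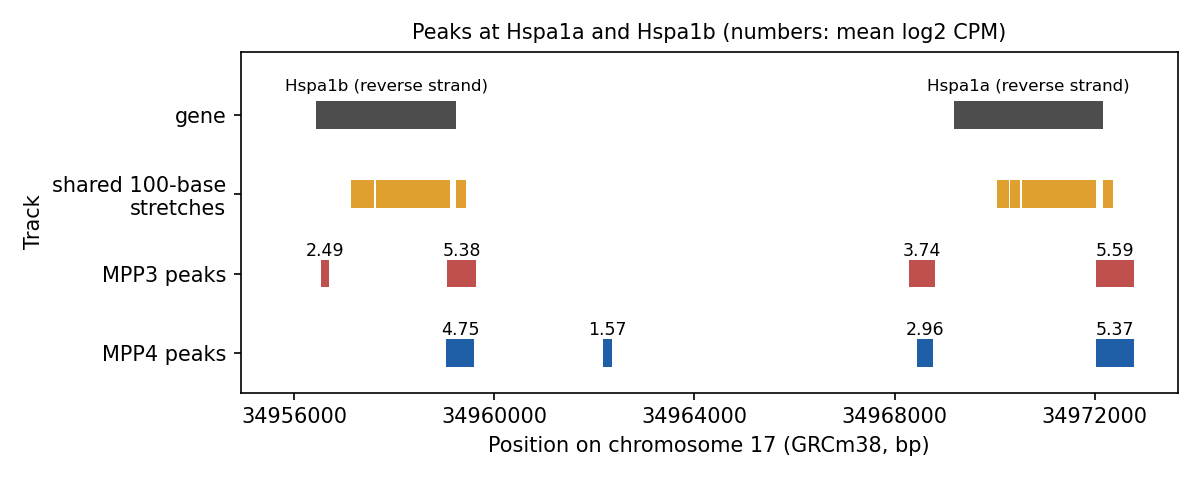
Map of the Hspa1a and Hspa1b loci on chromosome 17 (position in bp, GRCm38) with the genes, the stretches of at least 100 bases shared exactly by both loci, and the peaks of MPP3 and MPP4 cells with the mean log2 CPM above each. The promoter peaks (5.59 and 5.37 at Hspa1a, 5.38 and 4.75 at Hspa1b) reach into the shared stretches, and the other peaks do not.

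The upstream sequences of both genes are shown because the promoter peaks cover them and they hardly differ. The 250 bases before each start, from RefSeq (GRCm38.p6), were equal at 98.8% of positions. The differences were C44T, T47C and T249G, with the Hspa1a base first and positions counted from 1 at the 5′ end of the stretch. Capitals mark adjacent heat shock units, GAA and TTC spaced by 2 bases (GAANNTTC or TTCNNGAA).
Hspa1a, chr17:34972157-34972406, reverse strand: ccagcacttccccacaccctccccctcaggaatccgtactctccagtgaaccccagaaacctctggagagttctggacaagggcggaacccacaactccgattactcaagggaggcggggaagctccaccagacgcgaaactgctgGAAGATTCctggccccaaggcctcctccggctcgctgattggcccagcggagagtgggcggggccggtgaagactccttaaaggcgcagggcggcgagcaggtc
Hspa1b, chr17:34959239-34959488, reverse strand: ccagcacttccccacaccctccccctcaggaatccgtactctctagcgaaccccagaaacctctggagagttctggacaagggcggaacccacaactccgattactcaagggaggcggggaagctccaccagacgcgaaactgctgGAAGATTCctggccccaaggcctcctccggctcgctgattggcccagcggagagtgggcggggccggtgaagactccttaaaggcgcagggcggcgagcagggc

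Heat shock elements were searched on both strands as 3 units, GAA and TTC in turn with 2 bases between them. RefSeq promoter windows of 300 bases were at hand for 6 of the 9 genes, with 11 windows, and had no entry for Hspa8, Hsp90aa1 and Hsp90ab1. The windows are not independent, since both Hsph1 windows and 2 of the Dnaja1 windows overlap and Hspa1a and Hspa1b are copies, and windows of other genes can overlap too. The element was in 2 of the 11 windows, as a single site shared by both Hsph1 windows, beside 0.6% of all 32851 windows. In promoter peaks it was found at Hspa8, Hsp90aa1 and Hsph1 in MPP3 cells, in 3 of 11 peaks, and also at Dnaja1 in MPP4 cells, in 4 of 14 peaks. Of all promoter peaks 0.5% held it in each cell type, and their median length is below that of the promoter peaks of the 9 genes. In the central 300 bp of the peaks it was found in 2 of 11 and 2 of 14, beside 0.3% and 0.4%. The MPP3 peak over the Dnaja1 start held the same site as the MPP4 peak. The 5 sites lay at most 85 bp from a transcript start, and they are printed with 8 bases on each side, on the strand of the gene, with the element in capitals. A match of letters does not show that a factor binds.
Hspa8, chr9:40801055-40801083, forward strand: gcgagcgtGAAAGTTCCAGAAcgccgcgg
Hspa8, chr9:40801213-40801241, forward strand: cggcacccTTCTGGAAGGTTCtaagacag
Hsp90aa1, chr12:110696379-110696407, reverse strand: gagggttcTTCCGGAAGGTTCcggaggct
Dnaja1, chr4:40722526-40722554, forward strand: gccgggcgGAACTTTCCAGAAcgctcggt
Hsph1, chr5:149636280-149636308, reverse strand: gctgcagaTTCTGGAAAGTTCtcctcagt

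Hspa1a and Hspa1b had no exact element but held an adjacent pair of units, GAAGATTC, at the same place in both promoters. With 1 mismatch allowed, an element of 3 units covered this pair in both genes. Elements with at most 1 mismatch were in 8 of 11 promoter peaks in MPP3 and 10 of 14 in MPP4 cells. Of all promoter peaks, 5.6% and 5.7% held one. An adjacent pair of units was in 5 of the 11 windows, of Hspa1a, Hspa1b, Dnaja1 and Hsph1, beside 15.1% of all windows. Of other promoter motifs, CCAAT was in windows of all 6 genes (8 of 11 windows), beside 37.4% of all windows, and GGGCGG in windows of all 6 (10 of 11), beside 35.7%. TATAAA was in none of the 11 windows, beside 13.6% of all. In promoter peaks, CCAAT was in 8 of 11 in MPP3 and 9 of 14 in MPP4 cells, beside 34.3% and 33.8% of all promoter peaks. GGGCGG was in 8 of 11 and 11 of 14 promoter peaks, beside 54.5% and 54.0%. TATAAA was in none of these promoter peaks, beside 6.2% and 6.4%. The EBF1 consensus TCCCNNGGG was in none of the 11 windows, beside 6.6%. It was in 3 of 11 promoter peaks in MPP3 and 4 of 14 in MPP4 cells, beside 12.2% and 11.2% of all promoter peaks, and in no other peak of the 9 genes. Those peaks were at Hsp90aa1 and Hsp90ab1, and at Dnaja1 in MPP4 cells, where the MPP3 peak assigned to Mir207 covers the same site. The E-box CAGGTG was in 7 of 23 and 8 of 26 member peaks, beside 22.1% and 23.0%, and CAGCTG in 5 of 23 and 5 of 26, beside 22.8% and 23.5%. The median length of the members' peaks, 440 bp in MPP3 and 394 bp in MPP4 cells, was above the 273 and 285 bp of all peaks. Longer peaks raise the number of matches of any letters.

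Other chaperone and ubiquitin genes were listed in 8 groups for comparison, with promoter levels by the closest gene. Only chromosomes 1 to 19 were analysed here, and genes on other chromosomes were left out of the counts. Among the 20780 protein-coding genes 61.3% had a promoter peak in MPP3 and 61.2% in MPP4 cells, with median summed levels of 4.69 and 4.56 log2 CPM and medians per kb of 5.37 and 5.31. The 9 genes had medians of 6.91 in MPP3 (8 genes) and 6.85 in MPP4 cells, and of 6.91 and 6.67 per kb. Co-chaperones of HSP70 and HSP90 had a promoter peak at 18 of 20 genes in each cell type, with medians of 6.18 and 5.54, and of 6.50 and 6.23 per kb. Stip1, which links HSP70 to HSP90, was the most accessible of them, with 8.39 log2 CPM per kb in MPP3 and 8.22 in MPP4 cells, followed by Hspbp1 with 7.12 and 6.90 and Unc45a with 6.90 and 6.92. Chaperones of the endoplasmic reticulum and mitochondria had a peak at 8 of 11 genes, with medians of 6.39 and 6.01. Per kb their medians, 6.97 and 6.64, were next to those of the 9 genes, above in MPP3 and below in MPP4 cells. They were led by Hspa5 with 7.98 and 7.65 per kb, Hspd1 with 7.43 and 6.89 and Dnajc3 with 7.27 and 6.89. Other HSP70 and HSP110 genes, without those in the list before, had a peak at 7 of 8, with medians of 6.05 and 5.75, and of 6.53 and 6.63 per kb. Of these, Hspa2, Hspa4 and Hspa13 were highest per kb.

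Other cytosolic J proteins had a promoter peak at 12 of 13 genes, with medians of 5.46 and 5.17 log2 CPM and of 5.76 and 5.68 per kb, led by Dnajb5, Dnajb4 and Dnajb2. The TRiC chaperonin, which folds actin and tubulin, had 5 of 8, with medians of 5.19 and 4.92, and of 5.87 and 5.88 per kb, led by Cct7 with 7.55 and 7.25 per kb, then Cct4 and Cct2. Other ubiquitin and ubiquitin stress genes, without the X-linked Uba1, had 8 of 8 in MPP3 and 6 of 8 in MPP4 cells. Over these different sets the medians were 6.06 and 6.58 log2 CPM, and 6.69 and 6.61 per kb. The list was led by Nfe2l1 with 7.37 and 7.20 per kb, Ube2d3 with 7.33 and 7.12 and Vcp with 7.29 and 6.89. The list of heat shock factors, which also holds Hsbp1 for a protein that binds them, had 3 of 5 in each cell type, but not the same genes. Hsf1 had a promoter peak by the rule in MPP3 cells alone, with 6.77 per kb, and Hsf2 in MPP4 cells alone, with 5.75. With every peak within 1 kb of a start, whatever gene was closest, 4 of the 5 genes had one in each cell type. A gene without a promoter peak by the rule can thus still have a peak at its start. Hsf4 had 4.35 and 4.09 per kb and Hsbp1 5.71 and 5.92. Small heat shock proteins had 5 of 7 in MPP3 and 2 of 7 in MPP4 cells, so medians are over different genes and are not compared. The genes with a value in both tables were lower in MPP4 cells, Hspb11 with 7.00 and 6.42 per kb and Hspb1 with 4.19 and 3.06. In summed log2 CPM Hspb11 had 6.87 and 6.23, but Hspb1 hardly differed, with 2.0 and 1.95. With every peak within 1 kb of a start, the co-chaperones had 20 of 20 and the endoplasmic reticulum and mitochondrial chaperones 11 of 11. The other HSP70 and HSP110 genes had 8 of 8, and the other ubiquitin and ubiquitin stress genes 8 of 8. Among all protein-coding genes it was 67.5% in MPP3 and 67.3% in MPP4 cells. The J proteins had 12 of 13, the heat shock factors had 4 of 5, and the small heat shock proteins 6 of 7 in MPP3 and 3 of 7 (42.9%) in MPP4 cells. TRiC had 7 of 8, and its medians moved to 5.87 and 5.67 log2 CPM. The medians of the other ubiquitin and ubiquitin stress genes, 6.55 and 6.16 log2 CPM, were then lower in MPP4 cells. This was the reverse of the order in log2 CPM by the closest gene. Per kb the other HSP70 and HSP110 genes reversed likewise, to 6.66 and 6.44, and TRiC moved to 6.46 and 6.06. The endoplasmic reticulum and mitochondrial chaperones then had medians of 7.27 and 6.89 per kb, above the 6.98 and 6.67 of the 9 genes.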

How the data were processed

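ATAC-seq libraries of 5000 sorted cells were analysed from the deposited tables, 1 table for MPP3 and 1 for MPP4 cells. Per the study's methods and the submitters' processing notes, the authors trimmed reads with cutadapt 2.10, aligned them to mm10, removed duplicates and reads of low mapping quality, kept short fragments, called peaks with MACS2 2.2.7.1 on merged replicates and joined overlapping peaks of knockout and control cells into 1 set for each cell type. The authors used edgeR 3.32.0 to compare genotypes. The values used here are the mean log2 CPM of each peak over 4 libraries, as deposited by the authors. The 4 other value columns of each table hold the authors' own comparison of knockout and control (log2 fold change, F statistic, p-value and FDR) and were not used, so no comparison of genotypes was made. Depth per library was not analysed here. The CPM values, 2 to the power of the deposited log2 values, sum to 1034292 in MPP3 and 1032362 in MPP4 cells.

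Chromosome names and the ends of peaks fell within the GRCm38 reference. Peaks were assigned to the closest transcript of GENCODE vM21, by the distance of the peak centre to its start, centre or end. Percentiles are the share of peaks, or of protein-coding genes with a promoter peak, with a lower value. A gene's promoter level is the log2 of the summed CPM of its promoter peaks. Peaks of both tables were matched by the largest overlap. Assignment, matching and motif search were tested on simulated data. The members and lists were chosen with earlier results of these data known. All 9 members are named, and in each other list up to 3 genes with the highest promoter log2 CPM per kb, as the mean of both tables. Calculations used Python 3.11.15, numpy 2.4.6, pandas 2.3.3, scipy 1.17.1 and pysam 0.24.0, and plots matplotlib 3.10.9.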

Additional observations from a re-analysis of the deposited data

How the results depend on the processing

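No paired analysis was possible because the results come from no test and the tables hold no value per library, and for the same reason no library could be left out. The number of peaks at the 9 genes was 23 in MPP3 and 26 in MPP4 cells, and it became 50 in each cell type with every peak in the window, also those closest to another gene. It stayed between 22 and 26 with any overlap, a window of 10 kb upstream and 5 kb downstream, or a log2 CPM of at least 2. The 14 promoter peaks in MPP4 cells became 9 when a peak had to cover a transcript start. The median percentile of the promoter levels was 94.44 in MPP3 and 95.78 in MPP4 cells. It was 90.16 and 88.57 per kb, 95.33 and 97.06 with the highest promoter peak of each gene, and 94.67 and 94.64 with every peak within 1 kb of a start, an alternative chosen after seeing the data. Between MPP4 and MPP3 cells the median promoter difference, -0.38, was -0.42 after centring on all matched peaks and -0.26 per kb. The heat shock element was in windows of 1 of 6 genes (2 of 11 windows, which share 1 site, beside 0.6% of all). With 1 mismatch or with 2 adjacent units it was in windows of 4 genes (5 of 11 windows each), beside 7.2% and 15.1% of all windows. In promoter peaks the exact element was at 3 genes in MPP3 and 4 in MPP4 cells. The causes of these shifts were not tested beyond what each alternative changes by construction. The other alternatives moved counts by less than 1.5 times or shares within their intervals.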
